A study of Mus musculus with 10 samples.

Results

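Retained-intron transcripts are annotated transcripts of a gene that keep the whole or part of an intron which the coding isoforms of that gene remove. They were measured here beside the coding isoforms of the same genes in CD34− hematopoietic stem cells (HSCs). Members were all transcripts with the biotype retained_intron whose gene also has a protein_coding transcript and whose gene level was at least 5 TPM (transcripts per 1000000, a length-corrected measure of level) in each of the 10 samples. Members were thus selected on the gene level in these same samples. The rule found 11132 transcripts of 4237 genes, out of 18274 retained-intron transcripts and 95912 transcripts of all kinds. That level includes the retained-intron transcripts themselves. The retained-intron share, the measure used below, is the summed TPM of these transcripts as a percent of the summed TPM of all transcripts of the gene in that sample.

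RNA came from bone marrow HSCs, sorted as Lin− Sca-1+ c-Kit+ CD34− Flt3− cells, of individual C57BL/6 mice at 8 weeks of age. The controls were Reg1flox/flox and the others Vav1-iCre; Reg1flox/flox (Reg1Δ/Δ), so both groups carried the floxed alleles of Regnase-1 (Zc3h12a), an RNase, and differed in an improved Cre that is driven by the Vav1 promoter in blood cells. The first experiment held 3 samples per group and the second, whose sample names carry the term LT-HSC, held 2 per group. Control mice that carry the Cre without floxed alleles were not part of the comparison.

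Introns are normally removed before an mRNA leaves the nucleus. Transcripts that keep one are often held in the nucleus or, once a premature stop codon is read, degraded by nonsense-mediated decay. In blood cells intron retention is known to change during differentiation, and genes of RNA processing, among them SR protein and hnRNP genes, are known hosts of regulated retained introns. The annotation class is wider than that: a transcript is filed as retained_intron also where it starts or ends inside an intron.

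The sequences below show what the leading members keep. The first 5 genes have a most abundant retained-intron transcript that holds a whole intron of a coding isoform, and both ends of that intron are given. The others hold only one end of an intron, and that end is given. Sequences were read from GENCODE M21 transcripts (GRCm38), run 5′ to 3′ along the gene, and capitals mark the first or last 2 bases of the intron. A 5′ splice site is shown with 3 bases of exon and 6 of intron, a 3′ splice site with 20 bases of intron and 3 of exon.
Rps16, 5′ splice site: atgGTaagt
Rps16, 3′ splice site: ttggtcattgtgtcttgcAGcca
Srsf1, 5′ splice site: ctcGTacat
Srsf1, 3′ splice site: tttcatgtgtctttctgtAGaca
Hnrnpa2b1, 5′ splice site: tggGTaagt
Hnrnpa2b1, 3′ splice site: ctttacttctgttgaaacAGgct
Psma7, 5′ splice site: aagGTaagc
Psma7, 3′ splice site: tattggtgtcattttcttAGctt
Tapbp, 5′ splice site: cagGTaatc
Tapbp, 3′ splice site: gcaccgcttccgtttgccAGgct
Map4k1, 3′ splice site: agcccctgcctctcgcgcAGagc
Ppox, 3′ splice site: gtcccagtcttactcttaAGgtg
Hnrnpk, 3′ splice site: gtgtatttccccctctacAGtac
Psme2, 5′ splice site: cagGTgagt
Ppia, 5′ splice site: cagGTattt
Rps9, 5′ splice site: aagGTgtgt

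The whole introns were 89 bases in Rps16 (chr7:28352274-28352362, plus strand), 378 bases in Srsf1 (chr11:88049599-88049976, plus strand), 156 bases in Hnrnpa2b1 (chr6:51463255-51463410, minus strand), 98 bases in Psma7 (chr2:180036840-180036937, minus strand) and 78 bases in Tapbp (chr17:33926350-33926427, plus strand). The Map4k1 transcript held the last 65 of 497 bases of an intron at chr7:29001110-29001606 (plus strand). The Ppox transcript held the last 253 of 294 bases of an intron at chr1:171279575-171279868 (minus strand). The Hnrnpk transcript held the last 33 of 500 bases of an intron (chr13:58395688-58396187, minus strand), and the Psme2 transcript the first 35 of 327 bases (chr14:55589706-55590032, minus strand). The Ppia transcript held the first 123 of 798 bases (chr11:6418315-6419112, plus strand) and the Rps9 transcript the first 109 of 964 bases (chr7:3704769-3705732, plus strand).

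Of the 11132 transcripts, 11044 were found in GENCODE M21 with the same versioned identifier and length. Of these, 3522 (31.9%) held at least 1 whole intron of a coding isoform and 7494 (67.9%) held only part of one. The whole introns that were kept were short: the median of 4722 distinct introns was 266.5 bases (quartiles 114.2 and 691.8), against 1357 bases for the coding introns of the same genes that no member kept. The ends were GT and AG in 98.0% of them, GC and AG in 54 introns and AT and AC in 8. Their median GC content was 50.7%, against 52.6% in the rest of the same transcripts. The members had a median length of 806 bases and the coding transcripts of the same genes of 1606 bases. Exons of 1647 of the matched members (14.9%) overlapped an exon of another gene, and the libraries kept no strand, so reads of such a pair cannot be told apart. Among them were the leading retained-intron transcripts of Arglu1, Eif3d, Smarca5, Exosc8 and Ctnnb1, genes that are given below.

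A gene had up to 16 retained-intron transcripts (Cspp1), and 1434 genes had 1. The deposited values hold no transcript at 0 in all samples, so every gene had retained-intron TPM above 0 in at least 1 by construction. In all 10 samples, 1583 genes had retained-intron TPM above 0. The genes just inside the limit were Trappc2, Pik3cg and Ubr1, with lowest gene levels of 5, 5.003 and 5.006 TPM. Just outside were Slc4a2, Fam3a and Zfp236, at 4.996, 4.994 and 4.985 TPM.

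The libraries differed in ways that bear on these values. The deposited values carry no read counts, and the depth of a library is therefore unknown. Transcripts above 0 numbered from 71084 to 72706 in the controls and from 64790 to 65989 in libraries labelled Reg1Δ/Δ of the first experiment, and from 38071 to 44203 over the 4 libraries of the second. MicroRNA genes held 10.6% of all TPM in Reg1Δ/Δ replicate 2 of the second experiment and 1.12 to 4.94% in the other 9 libraries, and coding transcripts 73.5% there against 81.1% in replicate 1, and TPM levels of other genes are relative to this total while shares within a gene are not. Zc3h12a, the deleted gene, was at 1.28 to 1.83 TPM in the controls and 2.08 to 3.54 TPM in libraries labelled Reg1Δ/Δ of the first experiment, and at 1.48 and 6.07 against 10.3 and 8.52 TPM in the second, so it went against its label; these transcript values do not show the deleted exons, and directions are given by label throughout. Summed HSC markers (10 genes) were at 775 to 864 TPM in the controls and 192 to 571 TPM in libraries labelled Reg1Δ/Δ of the first experiment, and at 334 to 487 against 193 to 218 TPM in the second. Of these Procr was at 19.8 to 37.3 TPM in the controls and at 0.108 to 1.36 TPM in libraries labelled Reg1Δ/Δ. Ly6a, the gene of the sort marker Sca-1, went the other way in 4 of 5: it was at 68.1 to 108 TPM in the controls and at 449, 50.9, 369, 124 and 115 TPM in the others. Cd34, which the sort excludes at the surface, was at 51.9 to 236 TPM in the controls and at 9.54 to 19.8 TPM in the others. Summed B-lineage markers (10 genes) ran from 183 to 1589 TPM in the controls and from 2.75 to 23.95 TPM in libraries labelled Reg1Δ/Δ, and summed neutrophil markers (10 genes) from 3250 to 13750 against 345 to 1069 TPM. The part of these mixtures in the shares below was not tested, and in bulk RNA fewer cells of a type and less RNA per cell cannot be told apart.

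The share of retained-intron transcripts was lower in libraries labelled Reg1Δ/Δ of the first experiment. Over the 4237 genes, the median share was 10.2, 10.2 and 9.77% in the 3 controls and 7.41, 7.35 and 6.65% in the 3 libraries labelled Reg1Δ/Δ. The groups did not overlap, and the group means were 10.05% ± 0.236 and 7.14% ± 0.423 (SD, n = 3 each), a difference of −2.91 percentage points. In the second experiment the median share was 0.596 and 1.25% in the controls and 0.794 and 0.413% in libraries labelled Reg1Δ/Δ, and the groups overlapped. The difference there was −0.32 points, and 0.00686 points without control replicate 2. Over the summed TPM of all member genes, the share was 20.47 to 20.98% in the controls and 19.5 to 19.7% in libraries labelled Reg1Δ/Δ of the first experiment, and 6.83 and 6.74% against 5.95 and 5.82% in the second. In that measure the groups did not overlap in either experiment. No p-value is given for these scores, since the members were chosen with results of these data known.

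**Figure D1:**
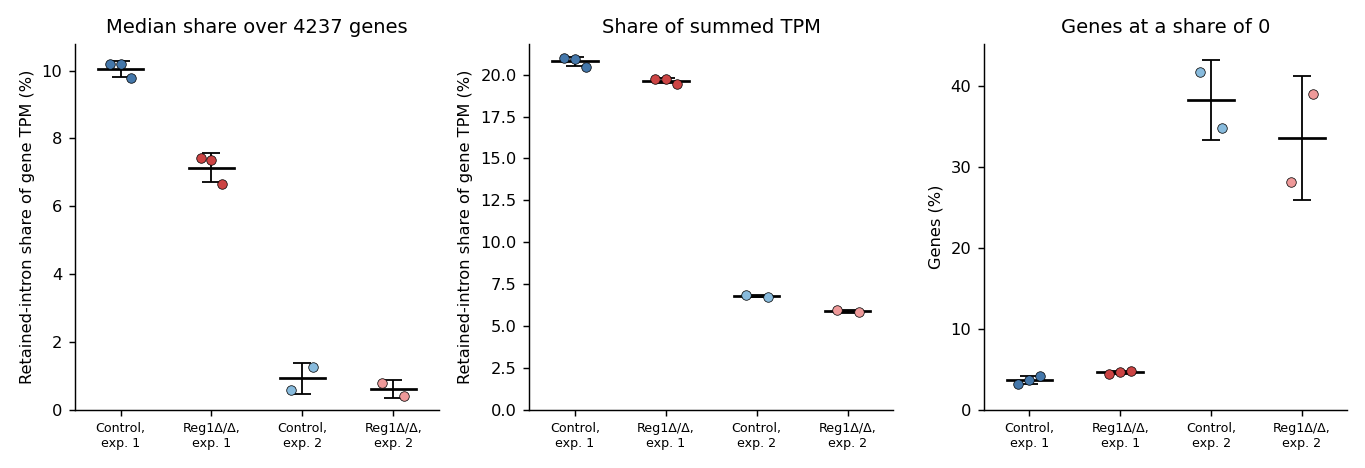
Retained-intron share by sample: the median over the 4237 member genes (left, %), the share of their summed TPM (middle, %) and the percent of member genes with a share of 0 (right), with points for samples and bars for the group mean and SD (n = 3 per group in experiment 1, n = 2 in experiment 2). Median shares lie at 9.77 to 10.2% in the controls and 6.65 to 7.41% in libraries labelled Reg1Δ/Δ of experiment 1, while in experiment 2 all 4 libraries lie at 1.25% or lower and the groups overlap.

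The summed TPM that was not in retained-intron transcripts was mostly coding. Coding transcripts held 58.2% ± 0.215 of the summed TPM of the member genes in the controls and 59.2% ± 0.143 in libraries labelled Reg1Δ/Δ of the first experiment (SD, n = 3 each). In the second they held 86.5% ± 0.0382 and 87.8% ± 0.0182 (SD, n = 2 each). Transcripts marked for nonsense-mediated decay held 6.68 and 6.82% in the first experiment and 3.65% in both groups of the second. Processed transcripts, which are spliced but have no open reading frame, held 14.3 and 14.4% in the first and 3.09 and 2.69% in the second experiment.

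The difference between the experiments was larger than that between the groups within either. In the controls, 2664 of the 4237 genes had a higher share in all 3 samples of the first experiment than in both samples of the second, and 273 had a lower one; over all 5484 genes tested these were 60.7% and 6.51%. A share of 0 was listed for 133 to 205 of the member genes in the libraries of the first experiment and for 1193 to 1769 in those of the second. By group means, the controls had 495 genes with over 50% of their TPM in retained-intron transcripts in the first and 113 in the second experiment. Of the former, 128 were under 5% in the controls of the second experiment, and no gene went from over 50% in the second to under 5% in the first. In 60 genes the mean share was over 50% in all 4 groups. Experiment and library set cannot be told apart in these labels.

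The ratio between the experiments differed by transcript length. Retained-intron transcripts shorter than 400 bases held 7.35% of the summed TPM of the member genes in the first experiment's controls (7.07 to 7.61%) and 1.69% in the second's (1.57 to 1.82%), a ratio of 4.34. For transcripts of 400 to under 600 bases the ratio was 3.66. It did not fall steadily with length, at 1.92, 2.54 and 2.34 in the next 3 classes and 1.74 from 3000 bases up. Coding transcripts shorter than 400 bases were also higher in the first experiment, at 11.2 against 5.33%, whereas coding transcripts of 600 to under 800 bases were lower, at 6.03 against 13.2%. The group difference also varied with length. In the first experiment the retained-intron transcripts under 400 bases were at 7.65% in libraries labelled Reg1Δ/Δ, or 1.04 times the controls, and overlapped them, while those of 1500 to under 3000 bases were at 0.629 against 0.907% (0.693 times) and those of 3000 bases and more at 0.281 against 0.442% (0.637 times). None of the 4 classes from 600 bases up overlapped between the groups there. Coding transcripts of 3000 bases and more were also lower there, at 4.68 against 5.87% (0.797 times). The second experiment did not have this order: the ratio was lowest, at 0.805, under 400 bases (1.35 to 1.38% against 1.57 to 1.82%, no overlap), 0.812 for retained-intron transcripts of 1500 to under 3000 bases and 0.999 for those of 3000 bases and more.

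**Figure D2:**
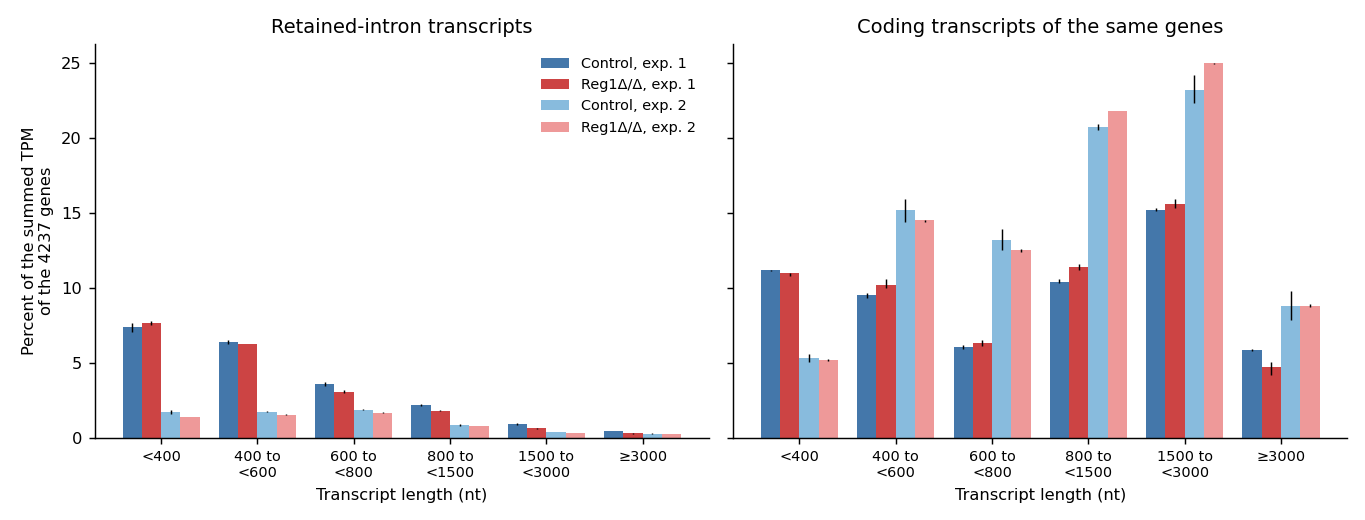
Percent of the summed TPM of the 4237 member genes held by retained-intron transcripts (left) and by coding transcripts of the same genes (right), by transcript length in bases; bars are group means and lines run from the lowest to the highest sample (experiment 1, n = 3 per group; experiment 2, n = 2). Retained-intron transcripts under 400 bases stand at 7.35 and 7.65% in experiment 1 and at 1.69 and 1.36% in experiment 2.

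Members that hold a whole intron made up the smaller part of the signal. They held 3.77% ± 0.103 of the summed TPM in the controls and 3.25% ± 0.0563 in libraries labelled Reg1Δ/Δ of the first experiment (SD, n = 3 each), with no overlap. In the second they held 1.39% ± 0.0813 and 1.35% ± 0.0164 (SD, n = 2 each). Members with only part of an intron held 16.8% ± 0.171 and 16.2% ± 0.119 in the first and 5.36% ± 0.154 and 4.50% ± 0.104 in the second experiment, with no overlap in either.

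Gene by gene, few differences passed a test across all genes. The share was tested with limma on its arcsine square root, with the experiment as a covariate, over 5484 genes with both kinds of transcript and at least 1 TPM in all samples. At a Benjamini-Hochberg FDR under 0.05, 1 member gene rose (Map4k1) and 1 fell (Ppox), and these were also the only calls among all genes tested (0.0182% in each direction). At an unadjusted p under 0.05, 68 member genes had a higher share with the label Reg1Δ/Δ and 543 a lower one, or 1.6 and 12.8%, close to the 1.88 and 11.7% of all genes tested. The share in a sample does not depend on how that sample is scaled.

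Map4k1 encodes a kinase of blood cells that restrains antigen receptor signalling. Its share was 59.6, 58.6 and 57.4% in the controls and 79.6, 82.5 and 84.4% in libraries labelled Reg1Δ/Δ of the first experiment. In the second it was 39.9 and 33.2% in the controls and 65.0 and 64.2% in the others. The groups did not overlap in either experiment, the means were 58.5% ± 1.09 and 82.2% ± 2.42 (SD, n = 3 each) and 36.6% ± 4.75 and 64.6% ± 0.579 (SD, n = 2 each), and limma gave an adjusted p of 0.00283. Both parts of the gene moved: its 1 retained-intron transcript, of 523 bases, was at 29.8 to 38.2 TPM in the controls and 56.5 to 86.0 TPM in libraries labelled Reg1Δ/Δ of the first experiment, and its other transcripts together at 22.1 to 25.9 against 13.2 to 15.9 TPM. In the second experiment the retained-intron transcript was at 17.5 and 17.8 against 47.7 and 41.7 TPM, and the others at 26.3 and 35.7 against 25.7 and 23.3 TPM. The gene lies at chr7:28982050-29003279. The call remained in 10 of 10 fits that left out a sample (adjusted p 0.00692 to 0.0231), and in 8 of 13 other settings. Settings that ended it include the first experiment alone (0.0861), the second alone (0.328), no covariate (1) and the log2 ratio with a pseudocount of 0.1 (0.06).

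Ppox encodes protoporphyrinogen oxidase, an enzyme of heme synthesis. Its share was 46.3, 43.3 and 50.1% in the controls and 29.4, 26.6 and 25.8% in libraries labelled Reg1Δ/Δ of the first experiment, and 20.1 and 24% against 4.71 and 6.37% in the second. Here too the groups did not overlap in either experiment (limma, adjusted p = 0.0142). Its 5 retained-intron transcripts summed to 22.3 to 27.6 TPM in the controls and 12.1 to 15.0 TPM in libraries labelled Reg1Δ/Δ of the first experiment, while the rest of the gene was at 27.5 to 29.2 against 34.8 to 39.4 TPM. In the second experiment the same sums were 4.89 and 4.68 against 1.46 and 1.5 TPM for the retained-intron transcripts and 19.4 and 14.9 against 29.5 and 22.1 TPM for the rest. The gene lies at chr1:171275990-171281186. The call was kept in 4 of 10 fits with a sample left out (adjusted p 0.0221 to 0.0897); the samples that ended it were controls 1 and 3 and Reg1Δ/Δ 2 and 3 of the first experiment and both Reg1Δ/Δ samples of the second. It was kept in 7 of 13 other settings and lost in the first experiment alone (0.0981), the second alone (0.357), without the covariate (1) and on the log2 ratio with a pseudocount of 0.1 (0.094), among others. Erythroid markers (9 genes) summed to 3369 to 6076 TPM in the controls and 8287 to 9091 TPM in libraries labelled Reg1Δ/Δ of the first experiment, and to 6621 to 8344 against 7062 to 7207 TPM in the second; their part in this share was not tested.

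**Figure D3:**
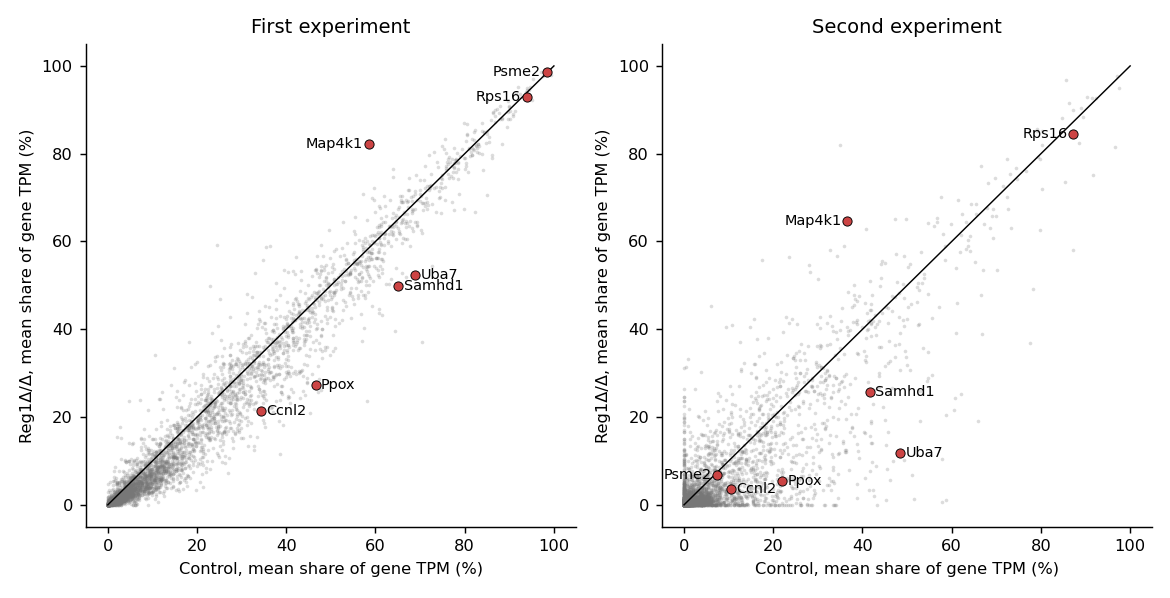
Mean retained-intron share (% of gene TPM) of each of the 4237 member genes in the controls (x) against the libraries labelled Reg1Δ/Δ (y), for the first experiment (left, n = 3 per group) and the second (right, n = 2 per group), with the line of equal shares. Map4k1 lies above the line and Ppox, Ccnl2, Samhd1 and Uba7 below it in both, while Psme2 moves from 98.4% in the first experiment's controls to 7.36% in the second's.

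Short of that threshold, the direction of the differences was uneven. In the first experiment the mean share was lower in libraries labelled Reg1Δ/Δ in 3129 of 4237 genes (73.8%) and higher in 1100. All 3 lay below all 3 controls in 1088 genes (25.7%) and above them in 151 (3.56%), against 22.7 and 3.96% of all genes tested. In the second experiment the mean was lower in 2286 genes (54.0%) and higher in 1416, and 535 genes had a share of 0 in all 4 libraries. The groups there did not overlap in 871 lower genes (20.6%) and 454 higher ones (10.7%), against 19.1 and 10.3% of all genes tested. Shares without overlap in the same direction in both experiments were lower in 287 genes (6.77%) and higher in 20 (0.472%), against 5.71 and 0.492% of all genes tested. Each count of member genes was close to that background. The median difference was −1.02 points in the first experiment and −0.14 points in the second.

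The 287 genes that were lower in both experiments were picked by that share, which largely sets the direction of its parts. Their summed retained-intron TPM had a lower mean in libraries labelled Reg1Δ/Δ in 93% of the genes in the first and 95.8% in the second experiment, against 72.4 and 53.3% of all member genes. The rest of the gene had a higher mean in 57.8 and 62.4% of them, against 46.7 and 55.3%. The most abundant retained-intron transcript of these genes had a median length of 1040 bases, against 742 over all member genes. A member with a whole intron was found in 66.6% of them, against 48.8%. These genes also had more retained-intron transcripts (median 3 against 2) and a higher gene level (median 62.3 against 42.6 TPM). The part of either in the length and the whole introns was not tested. The median share of these genes in the controls was 9.64 and 4.26%, against 10.4 and 1.85% over all member genes. The 20 genes that were higher in both include Map4k1, Cdk2ap2, Cdk6, Pcif1, Mrps25 and Ncl. Apart from Map4k1 these genes, and Ccnl2, Arglu1, Samhd1, H2-Q7, Uba7, Rbm39, Hnrnpl, Rpl5, Eif4a2 and H2-K1, which are given below, were chosen after their values were seen, and none passed the FDR of 0.05.

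Among the genes below the threshold, the share was lower in different ways. Ccnl2, which encodes a cyclin of splicing-associated kinases, was at 35.2, 35.5 and 32.5% in the controls and 23.2, 22.8 and 18.2% in libraries labelled Reg1Δ/Δ of the first experiment, and at 10.4 and 10.8% against 4.09 and 3.10% in the second (limma, adjusted p = 0.0572). Its retained-intron TPM was lower, at 17.8 to 22.7 against 7.79 to 10.2 TPM in the first and 2.93 and 2.18 against 0.947 and 0.643 TPM in the second experiment, with the rest of the gene overlapping between the groups. Arglu1, which encodes a regulator of splicing and transcription, had 1 retained-intron transcript of 3559 bases with a whole intron of 2280 bases (chr8:8681468-8683747, minus strand). Outside that intron its exons overlap an exon of another gene. The transcript was at 10.8 to 11.4 TPM in the controls and 4.70 to 5.99 TPM in libraries labelled Reg1Δ/Δ of the first experiment, and at 4.98 and 6.37 against 1.16 and 0.161 TPM in the second (adjusted p of the share 0.07).

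In Samhd1 and H2-Q7 the rest of the gene was higher. Samhd1 encodes a nucleotide hydrolase that limits viral DNA synthesis. Its share was 62.9, 65.6 and 66.9% against 48.9, 53.8 and 46.9% in the first and 47.4 and 35.8% against 25.5 and 25.7% in the second experiment (adjusted p = 0.07). Its retained-intron TPM was higher in libraries labelled Reg1Δ/Δ, at 34.2 to 53.0 against 26.8 to 29.7 TPM in the first experiment, and the rest of the gene more so, at 29.4 to 55.3 against 13.3 to 17.5 TPM. H2-Q7, a nonclassical MHC class I gene, went the same way in the first experiment, with retained-intron TPM of 73.7 to 86.8 against 34.0 to 65.2 TPM and 377 to 493 against 96.5 to 154 TPM for the rest (adjusted p of the share 0.0572). In Uba7, which encodes the enzyme that activates the ubiquitin-like protein ISG15, retained-intron TPM was lower. It was 62.2 to 93.9 against 111 to 152 TPM in the first experiment, and 7.56 and 6.00 against 20.3 and 30.5 TPM in the second, where the rest of the gene was at 58.5 and 44.0 against 25.6 and 27.4 TPM (adjusted p of the share 0.0852). In the first experiment the rest of Uba7 overlapped, at 58.0 to 81.4 against 53.3 to 67.5 TPM.

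**Figure D4:**
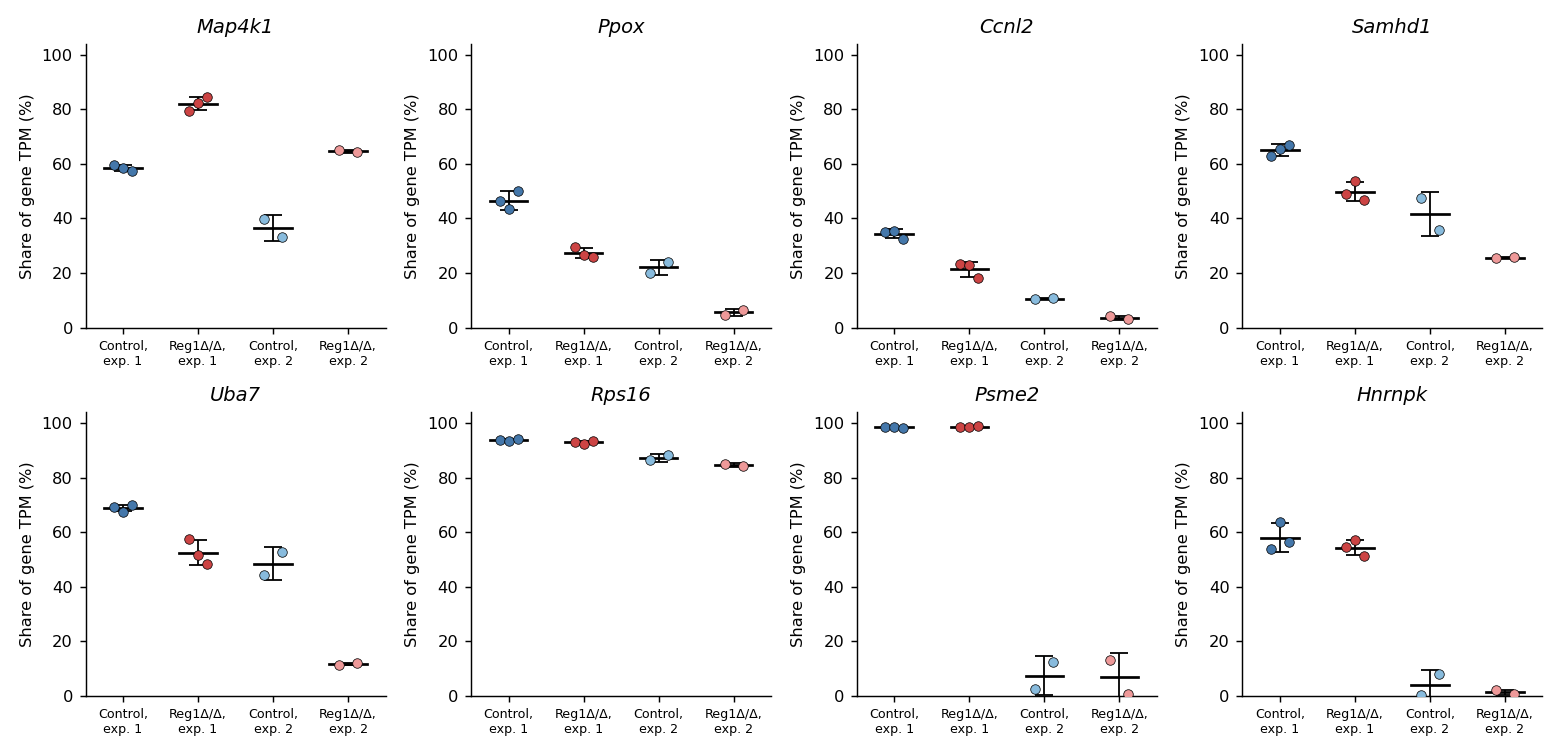
Retained-intron share (% of gene TPM) of 8 member genes by sample; points are samples, bars the group mean and SD (n = 3 per group in experiment 1, n = 2 in experiment 2). Map4k1 is higher and Ppox, Ccnl2, Samhd1 and Uba7 are lower in libraries labelled Reg1Δ/Δ of both experiments without overlap, while Psme2 and Hnrnpk differ mostly between the experiments.

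Higher shares were fewer. Cdk2ap2, which encodes a partner of the cyclin-dependent kinase CDK2, was at 4.05, 4.64 and 8.38% in the controls and 13.3, 14.6 and 14.4% in libraries labelled Reg1Δ/Δ of the first experiment, and at 6.37 and 1.66% against 14.5 and 17.3% in the second (limma, adjusted p = 0.0852). Cdk6, a kinase that drives HSCs into the cell cycle, was at 1.73, 0.793 and 2.12% against 6.50, 5.04 and 5.54% in the first and at 2.44 and 1.95% against 10.1 and 9.67% in the second experiment (adjusted p = 0.0572). Pcif1, which encodes an mRNA cap methyltransferase, was at 71.7 to 74.5% against 78.5 to 81.7%, and at 60.9 and 54.0% against 71.1 and 69.3% (adjusted p = 0.108).

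The 6 genes with the highest retained-intron TPM over the 10 samples were Ppia, Psme2, Hnrnpk, Rps16, Rps9 and Hsp90aa1, and none was called between the groups (limma, adjusted p 0.497 to 0.962). This rank pools experiments with very different levels: retained-intron TPM of Hnrnpk was 1430 to 1920 in the first and 2.17 to 67.3 in the second, and that of Rps9 8.56 to 23.1 and 1400 to 2900. Ppia, the gene of the protein-folding enzyme cyclophilin A, had a share of 43.6 to 46.3% in the controls and 44.0 to 44.4% in libraries labelled Reg1Δ/Δ of the first experiment, and of 52.9 and 54.7% against 52.1 and 51.1% in the second, where the groups did not overlap. Nearly all of it, 99.6%, was 1 transcript of 355 bases. Rps16, which encodes a protein of the small ribosomal subunit, had 92.4 to 94.2% of its TPM in retained-intron transcripts in the first and 84.1 to 88.3% in the second experiment. Its leading transcript, of 628 bases, holds the intron of 89 bases shown above; the groups did not overlap in either experiment, but the means were as near as 93.9 and 93.0% in the first and 87.3 and 84.5% in the second.

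In Psme2, Hnrnpk, Hsp90aa1 and Rps9 the experiments differed by more than the groups. Psme2 encodes a subunit of the PA28 proteasome activator. Its share was 98.2 to 98.8% in the 6 libraries of the first experiment and 2.34, 12.4, 13.2 and 0.488% in those of the second. Its leading retained-intron transcript was 185 bases long, and the leading coding one 962. Hnrnpk, which encodes an RNA-binding protein, was at 51.4 to 63.9% in the first and 0.291 to 7.87% in the second experiment. Hsp90aa1, a chaperone gene, was at 72.2 to 81.6% and at 16.8 to 30.6%. Rps9, another ribosomal protein gene, went the other way, at 1.22 to 3.44% in the first experiment, while in the second it was at 36.9 and 32.7% in the controls and 28.5 and 24.4% in libraries labelled Reg1Δ/Δ, without overlap.

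The retained-intron transcripts were also tested one by one, on log2(TPM + 1), among 37096 transcripts of all kinds with a mean of at least 1 TPM, which 4748 of the 11132 members passed. limma with the experiment as a covariate called 105 of them higher and 403 lower (2.21 and 8.49%), against 5.16 and 14.1% of all transcripts tested. Of 10862 coding transcripts of the same genes that were tested, 854 were higher and 1003 lower (7.86 and 9.23%). Log2 fold changes had a median of −0.24 in the members, −0.18 in all transcripts and −0.0034 in the coding transcripts of the same genes. The balance of directions depended on the scaling between samples: quantile normalization gave 227 higher and 161 lower members and a median log2 fold change of 0.03 (0.09 over all transcripts), and median-of-ratios scaling 268 higher and 307 lower and a median of −0.06 (0.02 over all). Leaving out 1 sample gave 54 to 137 higher and 223 to 634 lower members. Counts moved by over 1.5 times without Reg1Δ/Δ samples 1 and 3 of the first experiment (64 and 231, 54 and 223), without its sample 2 (241 lower), without controls 1 and 3 (240 and 263 lower) or 2 (62 higher) of that experiment, and in the second without control 1 (634 lower) or Reg1Δ/Δ 1 (69 higher).

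By known function, SR-type splicing regulators had the highest median share in all 4 groups. The 12 lists held 437 of the member genes. Pairs of medians or mean shares give the controls first and the libraries labelled Reg1Δ/Δ after them. Of these, 0 passed limma's FDR of 0.05; at an unadjusted p under 0.05, 60 were lower and 4 higher (13.7 and 0.915%), against 11.7 and 1.88% of all genes tested. In the first experiment 136 were lower without overlap and 11 higher (31.1 and 2.52%), and in the second 113 and 52 (25.9 and 11.9%); over all genes tested these shares were 22.7 and 3.96% in the first and 19.1 and 10.3% in the second. Without overlap in both experiments, 47 were lower (10.8%) and 2 higher (0.458%, Cdk6 and Rpl37a), against 5.71 and 0.492% of all genes tested.

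SR proteins and their kinases, which choose splice sites, had 30 members, with a median share of 23.5% in the controls and 19.1% in libraries labelled Reg1Δ/Δ of the first experiment, and of 4.49 and 1.83% in the second. In each experiment 12 of the 30 (40%) were lower without overlap, against 22.7 and 19.1% of all genes tested, and 0 and 1 were higher, against 3.96 and 10.3%. Luc7l, Rbm39, Snrnp70, Srsf11, Srsf2 and Tra2a were lower in both. Rbm39, a splicing factor gene, was at 41.4, 54.8 and 45.8% in the controls and 37.9, 38.6 and 34.0% in libraries labelled Reg1Δ/Δ of the first experiment, and at 5.26 and 3.57% against 1.18 and 2.08% in the second (adjusted p = 0.208). The members with the highest retained-intron TPM over all 10 samples were Srsf3 and Srsf1, with Srsf3 at 375 to 680 TPM in the first experiment and 0.845 to 17.5 TPM in the second. Srsf3 was at 78.0 to 80.9% in the controls and 79.7 to 83.3% in the others of the first experiment, and at 0.243 and 0.816% against 2.17 and 4.93% in the second, higher without overlap (adjusted p = 0.387). Srsf1, whose transcript of 759 bases keeps the intron of 378 bases, was at 55.3 to 63.1% against 58.8 to 66.8%, and at 4.91 to 13.6% in the second experiment.

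No member of the other RNA-processing lists passed the FDR of 0.05. The hnRNP list had 28 members with medians of 11.4 and 6.24% in the first and 1.98 and 1.14% in the second experiment, with 7 lower and 0 higher in the first and 7 lower and 4 higher in the second. The lower ones were 25% in each, against 22.7 and 19.1% of all genes tested. Hnrnpl, which encodes a splicing regulator that holds exons back, was at 10.6, 9.42 and 8.63% against 5.34, 5.02 and 5.20% in the first and 6.45 and 5.48% against 2.54 and 1.11% in the second experiment (adjusted p = 0.099). Hnrnpa2b1, with the kept intron of 156 bases, was at 32.3 to 45.9% against 32.3 to 47.8% and at 1.52 and 1.68% against 1.05 and 1.31% in the second, lower without overlap (adjusted p = 0.87). Of 34 core spliceosome genes, 10 were lower (29.4%) and 1 higher in the first experiment, with medians of 12.1 and 7.79%, and 10 lower (29.4%) and 5 higher in the second, with a median difference of −0.00799 points. Prpf19, the gene of a ubiquitin ligase of the spliceosome, was at 89.4 to 91.1% in all 6 libraries of the first experiment and at 37.5 and 28.6% against 0 and 10.8% in the second, and Sf3b6, a U2 component gene, had mean shares of 21.9 and 22.7% in the first and 0 and 0.035% in the second. The leading retained-intron transcript of Prpf19 was 260 bases long and held 42 of 107 bases of an intron. Of 21 genes of RNA decay and surveillance, 3 were lower (14.3%) and 0 higher in the first experiment, with medians of 12.4 and 8.77%, and 4 lower (19%) and 3 higher in the second. Among them Rbm8a, a gene of the exon junction complex, had mean shares of 76.7 and 78.1% and Exosc8, an RNA exosome gene, of 29.6 and 32.3% in the first experiment.

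**Figure D5:**
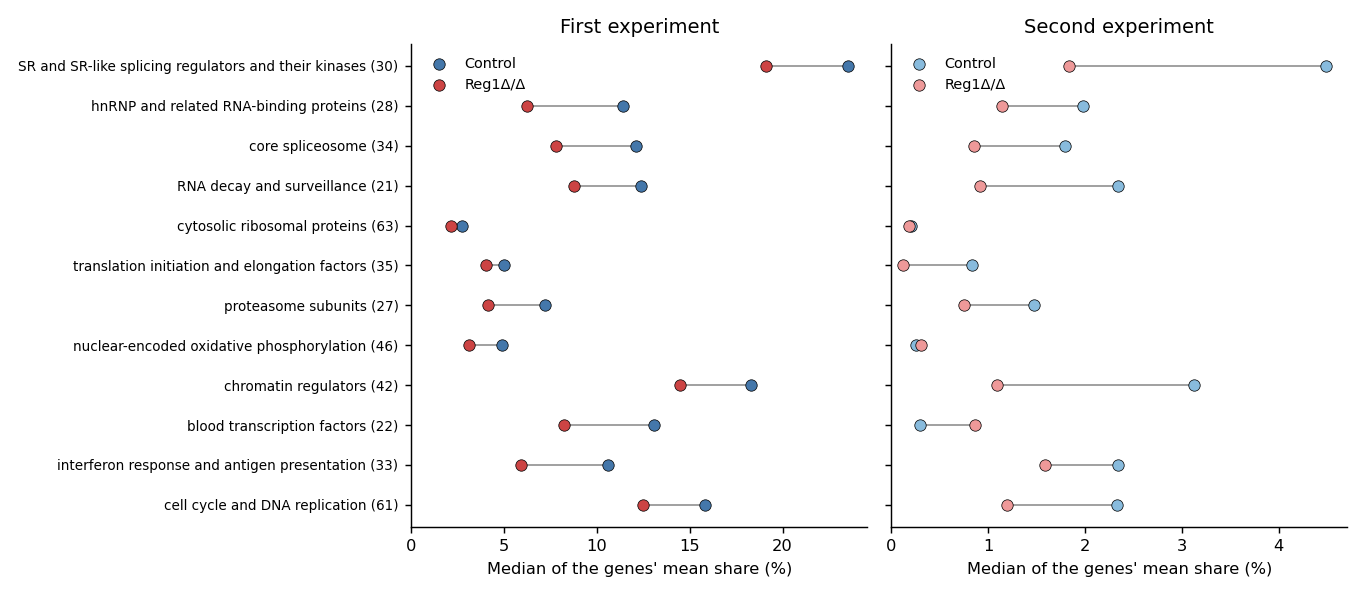
Median over the member genes of each list (number in parentheses) of the gene's mean retained-intron share (%), in the controls and the libraries labelled Reg1Δ/Δ of the first experiment (left) and the second (right, other scale). Splicing regulators stand highest at 23.5 and 19.1% in the first experiment, and cytosolic ribosomal proteins lowest at 2.76 and 2.16%.

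Cytosolic ribosomal proteins (63 members) had medians of 2.76 and 2.16% in the first experiment, with 17 lower and 3 higher, and of 0.202 and 0.182% in the second, with 22 lower and 8 higher. The lower ones were 27 and 34.9%, against 22.7 and 19.1% of all genes tested. Rpl5, whose protein also binds Mdm2, was at 48.3, 40.2 and 45.7% against 25.9, 33.2 and 24.4%, and at 17.2 and 19.6% against 8.86 and 4.46% (adjusted p = 0.07). Translation factors (35 members) had 12 lower and 0 higher in the first, and 12 and 3 in the second experiment. The lower ones were 34.3% in each, against 22.7 and 19.1% of all genes tested. The highest retained-intron TPM over all 10 samples was that of Eif3d and Eif4e, carried by the first experiment (597 to 1120 TPM in Eif3d, against 0 to 0.681 TPM in the second). Their mean shares were 90.2 and 89.7% and 68.1 and 66.6% in the first experiment and at most 2.44% in the second. Their leading retained-intron transcripts were 248 and 292 bases long and held 26 of 750 and 38 of 566 bases of an intron. Exons of the Eif3d transcript overlap an exon of another gene. Eif4a2, an RNA helicase gene of initiation, was at 65.7, 65.4 and 66.7% against 48.7, 61.5 and 48.5%, and at 15.3 and 14.4% against 8.13 and 8.66% (adjusted p = 0.147). Of 27 proteasome genes 14 (51.9%) were lower and 1 higher in the first experiment, where 22.7% of all genes tested were lower. In the second 3 (11.1%) were lower and 3 higher, with 19.1% of all genes tested lower. Psma7, with its kept intron of 98 bases, was at mean shares of 41.8 and 42.3% in the first and 0.986 and 0.588% in the second. Of 46 genes of oxidative phosphorylation 18 were lower and 0 higher in the first and 6 and 5 in the second experiment; the lower ones were 39.1 and 13%, against 22.7 and 19.1% of all genes tested. Sdha, a subunit gene of respiratory complex II, had mean shares of 81.7 and 83.4% in the first and 0.75 and 0.445% in the second experiment, and Cox6b1, of complex IV, of 33.8 and 33.9% and of 65.2 and 55.4%. The leading retained-intron transcript of Sdha was 239 bases long and held 56 of 2883 bases of an intron.

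Immune genes had the largest median difference of the 12 lists in the first experiment. The list of the interferon response and antigen presentation (33 members) had medians of 10.6 and 5.93% in the first and of 2.34 and 1.59% in the second experiment, and a median difference of −2.54 points in the first, against −1.03 over all genes tested. There 16 members were lower (48.5%) and 1 higher, against 22.7 and 3.96% of all genes tested, and in the second 9 (27.3%) and 6, against 19.1 and 10.3%. Gbp6, H2-D1, H2-K1, H2-Q7, H2-T23, Samhd1 and Stat2 were lower in both. H2-K1, a classical MHC class I gene, was at 4.90, 4.51 and 4.77% against 2.34, 2.35 and 2.23% and at 1.56 and 1.99% against 0.744 and 0.644% (adjusted p = 0.19). The members with the highest retained-intron TPM over all 10 samples, though not in the second experiment, where Samhd1 stood above Psmb10, were Psmb10, an immunoproteasome gene, at mean shares of 37.0 and 37.8% in the first and 7.84 and 4.68% in the second experiment, and Tapbp, the gene of tapasin, which keeps the intron of 78 bases, at 20.2 and 19.7% and at 34.1 and 28.8%.

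Chromatin regulators (42 members) had medians of 18.3 and 14.5% in the first experiment, with 12 lower and 1 higher, and 9 and 3 in the second. The lower ones were 28.6 and 21.4%, against 22.7 and 19.1% of all genes tested. Smarca5, a chromatin remodeller gene, had mean shares of 81.6 and 81.3% in the first and 25.6 and 28.1% in the second experiment, and Eed, a Polycomb gene, of 73.2 and 72.2% and of 44.2 and 54.8%. Cell cycle and replication genes (61 members) had 13 lower and 3 higher in the first and 19 and 6 in the second experiment; the lower ones were 21.3 and 31.1%, against 22.7 and 19.1% of all genes tested. Cdk4 was at 60.8 to 62.0% against 58.8 to 60.5% in the first and at 22 and 20.8% against 18.5 and 18.2% in the second experiment, and Cdk1 had mean shares of 84.4 and 85.0% and of 58.6 and 58.9%.

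Blood transcription factors were the list with the fewest shares that were lower without overlap. Their median difference was −1.23 points in the first experiment, against −1.03 over all genes tested. In the second it was 0.0417, against −0.0856. Of 22 members, 2 were lower (9.09%) and 1 higher in the first experiment, where 22.7 and 3.96% of all genes tested were (medians 13.1 and 8.22%), and 0 lower and 7 higher in the second, against 19.1 and 10.3% (medians 0.298 and 0.862%). The share of Gata2, a factor of HSC maintenance, was 16.7, 13 and 15.2% against 16.0, 21.4 and 15.3%, and 12.9 and 5.92% against 10.8 and 7.57% in the second experiment, with overlap in both (adjusted p = 0.773). Its retained-intron TPM and the rest of the gene were both lower in libraries labelled Reg1Δ/Δ, at 5.34 to 8.25 against 12 to 20.6 TPM and 29.6 to 30.3 against 80.6 to 103 TPM in the first experiment. Ctnnb1, the gene of beta-catenin, was at 44.2 to 47.8% against 45.3 to 50.1%, and at 0 and 18.1% against 1.18 and 0% (adjusted p = 0.766). Stat3 had mean shares of 61.1 and 59.8% and of 0.56 and 1.93%. Runx1, which makes blood stem cells emerge from endothelium, had 1 retained-intron transcript, at 1.43 to 1.94% against 0.562 to 2.59% in the first experiment and listed at 0 in all 4 libraries of the second. No retained-intron transcript of Tal1, Bmi1, Hoxb4 or Egr1 is listed. Since transcripts at 0 in all samples are not listed, such a transcript may be undetected or not annotated. Zc3h12a had 1 retained-intron transcript but was not a member, with a lowest gene level of 1.28 TPM.

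Whether the difference between the groups depended on the experiment was tested as an interaction in limma. It passed an FDR of 0.05 in 62 member genes (1.46%), against 1.33% of all genes tested. In 33 of the 62, both samples of a group of the second experiment had a share of 0. Without control 1 or control 2 of the second experiment the count was 237 and 279, without Reg1Δ/Δ 1 of that experiment 105, and without any 1 sample of the first experiment it was 27 to 41. The nuclear-retained RNA Malat1 was lower with the label in both experiments, at 1330 to 2190 TPM in the controls and 244 to 552 TPM in libraries labelled Reg1Δ/Δ of the first, and at 6.03 and 10 against 1.57 and 1.05 TPM in the second. Its part in the shares was not tested.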

How the data were processed

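RNA-seq of sorted CD34− HSCs from 5 Reg1Δ/Δ and 5 control mice was used. Per the study's methods the authors aligned 101-base paired reads to GRCm38 with STAR and estimated TPM with Salmon (0.9.1 in the submitters' processing notes) on GENCODE M17. The deposited values are log2(TPM + 1) per transcript. Salmon divides reads among overlapping isoforms by a model, and TPM is per base, so few reads on a short isoform give a high TPM. The labels and the methods name different versions of the cDNA kit; the Nextera XT libraries kept no strand. The deposited log2 values were turned back into TPM and summed by gene and biotype. Samples were grouped by labels, and experiments by sample names. One deposited column of the second experiment (Reg1Δ/Δ replicate 2) carries the name of replicate 1; its values differ.

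Shares (arcsine square root) and log2(TPM + 1) were fitted in limma 3.58.1 (R 4.3.3), with the experiment as a covariate and Benjamini-Hochberg adjustment over all genes or transcripts tested; scripts were tested on simulated data. Kept introns came from GENCODE M21. Members and gene lists were chosen with earlier results of these data known. Genes were named as: called genes without overlap in either experiment and at least 5 retained-intron TPM in the higher group, the 6 with the highest retained-intron TPM, the 2 highest per list, genes the study names, and those next to the limit. Alternatives are in the closing section. Samples came from individual mice, so p-values measure the spread between these mice. One single-transcript result is not reported here.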

Additional observations from a re-analysis of the deposited data

Results flagged for a closer look

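The difference of the retained-intron share between the groups itself differed between the experiments in 62 member genes (limma interaction term, FDR under 0.05). In Mrs2, chosen here for the smallest adjusted p of the interaction (0.000477), the first experiment had a mean share of 89.6% in controls and 92.1% in libraries labelled Reg1Δ/Δ, and the second 57.8 against 0.598%. In Dtnb (0.000477) the same means were 30.9, 36.1, 33.6 and 0%, and in Fastkd2 (0.000862) 23.3, 21.1, 35.0 and 82.0%. No group had 4 or more samples, so single samples were not tested against the rest of their group.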

How the results depend on the processing

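The count of member genes whose share was called (1 higher, 1 lower) rested on the scale of the share. On the log2 ratio of retained-intron to other TPM it was 85 higher and 263 lower with a pseudocount of 1 and 0 and 0 with 0.1 (84 and 565 at an unadjusted p under 0.05); on the raw share 4 were lower. With retained-intron plus coding TPM as the denominator 6 were lower, without a filter on low genes 3, with genes of at least 10 TPM 4 higher and 43 lower, with a trended variance 3 and 20, and with 1 weight per experiment, chosen after seeing the data, 9 lower. An FDR of 0.01 left 0 lower (543 at an unadjusted p under 0.05). No gene was called (0 and 0) without the covariate (14 and 150 at an unadjusted p under 0.05), in the first experiment alone (95 and 716), in the second alone (104 and 209) or with the replicate block (49 and 438), where Map4k1 had an adjusted p of 0.169 and Ppox of 0.316. Leaving out each sample gave 1 higher throughout and 0 to 2 lower. For the transcripts (105 higher, 403 lower), a pseudocount of 0.1 gave 61 and 263, quantile normalization 227 and 161, median-of-ratios scaling 268 higher, no covariate 5 and 38, the first experiment alone 194 and 849, the second alone 0 and 0 (194 and 318 at an unadjusted p under 0.05), weights per experiment 198 and 861, an FDR of 0.01 23 and 129, and the replicate block 51 and 205. Leaving out each sample gave 54 to 137 and 223 to 634. The interaction count (62) was 24 with weights and 27 to 279 with a sample left out. Fewer samples enter the fits of 1 experiment; otherwise the cause was not tested.

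The difference of the median share (−2.91 and −0.32 points) was −3.94 points with retained-intron plus coding TPM in the first experiment, −1.14 and −0.90 on summed TPM, and −3.41 and −0.93 in genes with a whole kept intron, an alternative added after seeing the data. Leaving out each sample gave −3.05 to −2.67 points for the first experiment and −0.647 to 0.00686 for the second, where the sign turned without control replicate 2.

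Replicate numbers are in the labels, but same-numbered samples deviated together only weakly (correlations 0.0569, 0.0628 and 0.0437 for the first experiment, 0.00394 for the second), so the pairing was not used; in the first experiment all 3 correlated best with their own number. Among the 30 genes named by rule, the difference changed sign in 45 values of 18 genes; 1 of these was a call, Runx1 on the log2 ratio with a pseudocount of 1 (1.23, with Sdha at −0.037), where its share was listed at 0 in the second experiment. The others, on the scale of each fit, were Runx1 (0.75) and Psma7 (0.0698) with a pseudocount of 0.1; Stat3 (−0.00218), Runx1 (0.000625) and Psma7 (0.00193) on the raw share; Srsf1 (−0.00186) with the other denominator; Hsp90aa1 (0.0388) in the second experiment alone; Stat3 (−0.00189), Psma7 (0.00325), Rbm8a (0.00241) and Psme2 (0.00289) with weights; and in the first experiment alone Stat3 (−0.0133), Rps9 (0.00514), Ctnnb1 (0.0195), Prpf19 (0.0139), Psma7 (0.00594), Eed (−0.0111), Smarca5 (−0.00411), Psmb10 (0.00889), Cox6b1 (0.00104), Rbm8a (0.016) and Psme2 (0.0108). With a sample left out, the ranges that cross 0 were Cdk1 −0.00164 to 0.00934, Ctnnb1 −0.105 to 0.0302, Eed −0.00389 to 0.0543, Eif3d −0.0171 to 0.000371, Hnrnpa2b1 −0.0439 to 0.00368, Hsp90aa1 −0.0463 to 0.00124, Psma7 −0.0141 to 0.0162, Psmb10 −0.0292 to 0.00114, Psme2 −0.04998 to 0.0428, Rbm8a −0.0236 to 0.00622, Runx1 −0.00975 to 0.0139, Sdha −0.00199 to 0.0358, Smarca5 −0.0371 to 0.0576, Srsf1 −0.00596 to 0.0415 and Stat3 −0.0089 to 0.0301. None of these genes was called as reported, and the causes were not tested. Depth is unknown, so the counting error of low shares cannot be given.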

Other observations

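Among single retained-intron transcripts that passed limma's FDR of 0.05 without overlap of the groups in either experiment and averaged at least 5 TPM in the higher group, several of the largest fold changes came with a like change of the whole gene. The names in this paragraph were chosen after their values were seen. Among the rises on the log2(TPM + 1) scale were those in Hpn (2.30, adjusted p = 0.0228) and Mylk3 (1.89, adjusted p = 0.00819). The Hpn transcript was at 5.45 TPM in controls and 28.9 TPM in libraries labelled Reg1Δ/Δ of the first experiment and at 5.01 and 16 TPM in the second, with the whole gene at 27.8 and 194 TPM and at 23 and 92.7 TPM. The largest falls were in Tmem176b (−3.21, adjusted p = 0.000151), Sh3bgrl3 (−2.90), Coro1a, an actin regulator gene of leukocytes (−2.80), and the globin gene Hbb-bs (−2.74). The Hbb-bs transcript was at 849 against 134 TPM in the first experiment and 10.2 against 0.402 TPM in the second, with a gene share of 63.9 and 76.5% in the first and 0.583 and 0.195% in the second; globin genes share sequence with near-identical copies, so the division of their reads is uncertain.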
